A study of Mus musculus with 8 samples.

Results

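Saa3, Lcn2, Il1b, Il1a, Il1rn, Il1r2, Acod1, Cxcl2 and Ptgs2 are genes of the acute-phase and interleukin-1 response that lipopolysaccharide (LPS), a bacterial cell wall component, switches on in many myeloid cells. They were taken by symbol, and all 9 were found among the 18020 rows of the deposited expression table. They were chosen by function together with measured FPKM values of these libraries, in particular the levels of Saa3 and Il1b with LPS and with vehicle. Differences from vehicle are therefore given below as descriptions, with no test, and support nothing.

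LPS binds Toll-like receptor 4, and the signal passes through MyD88 to the transcription factor NF-kB. Interleukin-1 uses the same MyD88 relay through its own receptor, so ligands, antagonist and decoy receptor of interleukin-1 tune a loop that feeds itself. Acute-phase proteins such as serum amyloid A and lipocalin-2 are among the products of this response, and lipocalin-2 is also stored in the granules of maturing neutrophils, which are abundant in bone marrow.

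The 8 libraries are bone marrow RNA of leukaemic mice, each a recipient of BCR-ABL1+ B-ALL cells, which are B-lineage leukaemia cells driven by a fusion tyrosine kinase. In the group WT_PBS (n = 2) these cells were Aid WT and the treatment was phosphate-buffered saline, in WT_LPS (n = 3) they were Aid WT with LPS, and in KO_LPS (n = 3) Aid KO with LPS. The treatment is attached in the labels to the transplanted cells, with no dose, time, route, strain or age, and whether cells or mice received it is not certain. The host's own marrow cells were not stated to lack Aid, no group without Aid and without LPS was analysed here, and nothing says whether the mice of a group had separately transformed cells, so p-values describe no more than the spread among these libraries.

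Values are FPKM (fragments per transcript length and per mapped fragments), which can be compared between genes. Depth in reads is unknown. The labels call the cells B lymphocytes, and 12 B-lineage markers summed to between 5338 and 7879 FPKM, but 17 neutrophil markers summed to between 5979 and 29750 FPKM, so the libraries were mixtures. WT_LPS replicate 1 and KO_LPS replicates 1 and 2 scored highest on the first principal component, which took 60.5% of the variance. For the genes named at the start, differences between KO_LPS and WT_LPS that moved without these 3 libraries are given below with and without them. For all other genes, only differences with these libraries included are given.

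Among the 9 genes, Lcn2 and Saa3 were the most abundant, with means over the 8 libraries of 725 and 382 FPKM. Il1r2 followed at 43.1 FPKM, then Il1b at 12.0, Cxcl2 at 9.55, Acod1 at 2.28, Il1rn at 2.19, Il1a at 0.706 and Ptgs2 at 0.02. Of the neighbours in this order, Cxcl2 and Acod1, and Acod1 and Il1rn, overlapped in every group. A filter at a mean of 0.5 FPKM kept 8 of the 9, and Ptgs2 was not tested. Of the 9, 7 were highest in WT_LPS replicate 1, among them the untested Ptgs2 at 0.08 FPKM. That library was the highest for 9.68% of the 12061 genes tested. Saa3 and Il1rn were highest in KO_LPS replicate 2, as were 16.7% of the genes tested.

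**Figure D1:**
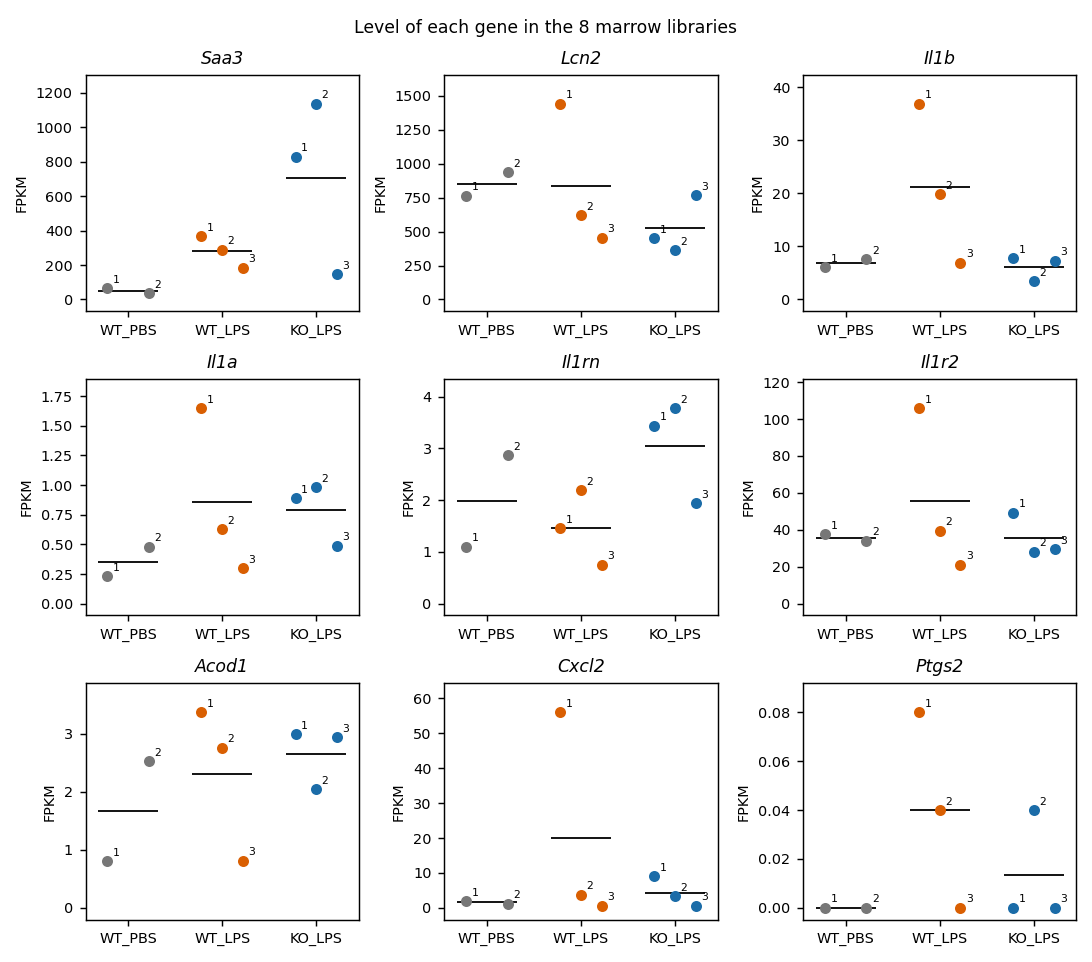
FPKM (linear axes from 0) of each of the 9 genes in each library, by group, with the replicate number beside each point and a line at the group mean. Saa3 is above both WT_PBS libraries in all 6 LPS libraries, whereas Cxcl2, Il1b and Il1r2 are set apart by WT_LPS replicate 1 at 56.03, 36.86 and 105.96 FPKM.

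The promoters of 4 of these genes are shown as examples. Cxcl2, Il1b and Lcn2 were highest in WT_LPS replicate 1, which also had the highest sum of neutrophil markers. Saa3 was highest in KO_LPS replicates 1 and 2. Each window holds 250 bases before and 50 after a RefSeq transcript start (GRCm38.p6), on the gene's strand. Capitals mark matches, on either strand, to the NF-kB consensus or to TTNNGNAA, the spaced core of sites that C/EBP factors bind. The NF-kB consensus was taken as GGGRNNYYCC, where R is A or G, Y is C or T and N is any base. Looser forms of it were not searched.
Cxcl2, chr5:90903649-90903948, plus strand: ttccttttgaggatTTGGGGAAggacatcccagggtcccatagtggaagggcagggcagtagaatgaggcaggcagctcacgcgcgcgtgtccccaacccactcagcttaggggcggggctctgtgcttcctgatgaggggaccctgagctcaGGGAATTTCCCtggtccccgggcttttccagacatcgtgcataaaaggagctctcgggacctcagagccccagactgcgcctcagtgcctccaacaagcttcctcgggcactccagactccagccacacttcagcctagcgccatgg
Saa3, chr7:46715627-46715926, minus strand: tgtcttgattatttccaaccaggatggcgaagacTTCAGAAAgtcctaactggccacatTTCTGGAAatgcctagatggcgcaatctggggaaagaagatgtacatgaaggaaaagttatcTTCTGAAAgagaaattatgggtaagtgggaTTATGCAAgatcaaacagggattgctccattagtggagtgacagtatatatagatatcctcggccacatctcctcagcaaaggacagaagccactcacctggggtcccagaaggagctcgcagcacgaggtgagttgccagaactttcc
Lcn2, chr2:32387690-32387989, minus strand: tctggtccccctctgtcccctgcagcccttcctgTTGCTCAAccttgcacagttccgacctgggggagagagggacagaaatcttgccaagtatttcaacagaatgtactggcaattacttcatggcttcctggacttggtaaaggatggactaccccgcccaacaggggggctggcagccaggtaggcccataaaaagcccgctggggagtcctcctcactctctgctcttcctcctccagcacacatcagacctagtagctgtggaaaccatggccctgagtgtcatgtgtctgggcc
Il1b, chr2:129371090-129371389, minus strand: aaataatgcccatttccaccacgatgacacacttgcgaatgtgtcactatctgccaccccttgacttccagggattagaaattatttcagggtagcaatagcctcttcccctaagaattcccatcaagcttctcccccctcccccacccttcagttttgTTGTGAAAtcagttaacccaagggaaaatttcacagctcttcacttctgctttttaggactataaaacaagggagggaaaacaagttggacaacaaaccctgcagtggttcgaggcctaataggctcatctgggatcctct
The Saa3 window lies at a start inside the annotated span of the gene, which also has a start further upstream. In the Cxcl2 window, GGGAATTTCC and, on the other strand, an overlapping match form 1 run of capitals, 97 bases before the start. None of the windows of the other 8 genes matched the NF-kB consensus, which 8.46% of 32851 promoters of this length held. TTNNGNAA, which does not overlap these matches, occurred in windows of 7 of the 9 genes, with 4 matches for Saa3 and 1 each for Cxcl2, Lcn2 and Il1b. It occurred in 40.7% of all promoters. That share counts single windows, whereas a gene could have several: Il1rn had 3, the first without a match. Matches are letters in a window and not bound sites.

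On GRCm38, Il1a (129299609 to 129310186) and Il1b (129364569 to 129371164) lie close together on chromosome 2, 54.4 kb apart with 2 predicted genes between them. Il1rn, the antagonist, lies far from them on the same chromosome (24336860 to 24351491), as does Lcn2 (32384637 to 32387739). Saa3 is on chromosome 7 (46711998 to 46719615), Cxcl2 on chromosome 5 (90903899 to 90905938) and Acod1 on chromosome 14 (103047012 to 103056573). Il1r2 (40084692 to 40125230) and Ptgs2 (150100031 to 150108234) are on chromosome 1.

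The first comparison was between LPS and vehicle where the transplanted cells were Aid WT. Saa3, a serum amyloid A made outside the liver by macrophages and other cells, had 64.67 and 36.92 FPKM with vehicle (WT_PBS) and 366.19, 288.82 and 184.99 in WT_LPS, so the groups did not overlap. In KO_LPS it was at 830.02, 1136.63 and 147.72 FPKM. All 6 libraries with LPS were therefore above both with vehicle, which held for 1 of the 9 genes and for 2.17% of the genes tested. The mean was 5.51 times as high in WT_LPS as in WT_PBS and 13.9 times as high in KO_LPS, and these ratios share the same 2 vehicle libraries. Within KO_LPS, replicate 3 stood below every WT_LPS library. In bulk tissue, fewer cells of a type and less RNA per cell cannot be told apart.

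The other acute-phase gene, Lcn2, which encodes a siderophore-binding protein, did not follow Saa3. It had 765.14 and 936.75 FPKM with vehicle, 1441.18, 619.14 and 454.24 in WT_LPS and 451.75, 362.21 and 769.78 in KO_LPS. Both vehicle libraries lay inside the range of WT_LPS. Divided by the summed neutrophil markers, Lcn2 was nearly level: it varied 1.34-fold over the 8 libraries, from 48.4 to 65.1 FPKM per 1000 FPKM of markers, whereas its own level varied 3.98-fold. Saa3 varied 84.7-fold on that scale and 30.8-fold in FPKM.

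The interleukin-1 ligands were low to moderate. Il1b, the secreted ligand that needs cleavage by caspase-1, had 6.10 and 7.60 FPKM with vehicle, 36.86, 19.86 and 6.91 in WT_LPS and 7.81, 3.49 and 7.29 in KO_LPS. Replicates 1 and 2 of WT_LPS were above all other libraries, while replicate 3 lay between the vehicle libraries. Il1a, the ligand that is active without cleavage, had 0.23 and 0.48 FPKM with vehicle, 1.65, 0.63 and 0.30 in WT_LPS and 0.89, 0.98 and 0.49 in KO_LPS. It was above both vehicle libraries in all 3 KO_LPS libraries, barely so in replicate 3, and in 2 of 3 WT_LPS libraries. Per 1000 FPKM of neutrophil markers, Il1b had 0.466 and 0.462 FPKM with vehicle, 1.24, 2.06 and 0.754 in WT_LPS and 1.13, 0.584 and 0.482 in KO_LPS. Il1a had 0.0176 and 0.0292 on that scale with vehicle, 0.0555, 0.0653 and 0.0327 in WT_LPS and 0.128, 0.164 and 0.0324 in KO_LPS. The share of all genes whose groups separate on that scale was not computed, so nothing is read from these values.

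Of the genes that restrain interleukin-1, Il1rn encodes the receptor antagonist and Il1r2 the decoy receptor, which binds ligand without signalling and is typical of neutrophils. Il1rn had 1.10 and 2.87 FPKM with vehicle, 1.46, 2.19 and 0.75 in WT_LPS and 3.44, 3.78 and 1.94 in KO_LPS. Its groups all overlapped, and only KO_LPS replicates 1 and 2 exceeded both. Il1r2 had 37.49 and 34.03 FPKM with vehicle, 105.96, 39.63 and 21.09 in WT_LPS and 49.22, 28.06 and 29.46 in KO_LPS. Apart from WT_LPS replicate 1, its values stayed within 21.09 to 49.22 FPKM.

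The chemokine gene Cxcl2, whose product draws neutrophils through Cxcr2, had the widest range of the tested genes described here. It had 1.85 and 1.23 FPKM with vehicle, 56.03, 3.71 and 0.67 in WT_LPS and 9.01, 3.30 and 0.64 in KO_LPS. The groups overlapped, with the lowest library of each LPS group below both vehicle libraries and the highest above them. Within WT_LPS the highest library was 83.6 times the lowest. Acod1, the enzyme that makes itaconate in activated macrophages, had 0.80 and 2.53 FPKM with vehicle, 3.37, 2.76 and 0.81 in WT_LPS and 2.99, 2.04 and 2.94 in KO_LPS, with all groups overlapping. Ptgs2, the inducible cyclooxygenase of prostaglandin synthesis, was listed at 0 in 5 libraries and at most at 0.08 FPKM. The constitutive Ptgs1 was at 11.97 to 41.73 FPKM.

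Over the 9 genes, the median difference in log2(FPKM + 1) between WT_LPS and WT_PBS was 0.32, with 7 above 0, against a median of -0.06 and 38.5% above 0 for all 12061 genes. Only Saa3 had groups that did not overlap, and 5.36% of all genes did so upward. With limma, 0 of 12061 genes passed in this comparison (0% called), and 142 had an unadjusted p under 0.05. The median of the 9 was 0.05 without WT_LPS replicate 1 and 0.69 without WT_LPS replicate 3. The difference of Saa3 was 2.44 ± 0.76 (SE), 2.04 to 2.83 with any 1 library left out and 2.22 without the 3 libraries high on the first component, while that of Cxcl2, 1.60 ± 1.30, was 0.15 without WT_LPS replicate 1. Il1r2 turned from 0.32 to -0.29 without that library. Between KO_LPS and the same vehicle libraries, Saa3 and Il1a did not overlap upward, beside 8.22% of all genes upward and 21.5% in either direction, and 0.0497% were called by limma. The differences were 3.38 for Saa3, 0.39 for Il1a and -0.18 for Il1b, and nothing is read from their likeness to those of WT_LPS, since the vehicle libraries are shared.

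WT_LPS replicate 1 also had the highest sum of neutrophil markers, 29750 FPKM against 9650 and 9165 in the other WT_LPS libraries and 13100 and 16450 in WT_PBS. Most of it was S100a8 and S100a9, at 11250.46 and 9485.76 FPKM there, so the sum and the scale and covariate built on it follow mainly these genes. Mmp8, Ly6g, Cxcr2 and Cebpe were highest in WT_PBS replicate 2, and the other markers of the list in WT_LPS replicate 1. Some other genes of the pathway lists, picked after their values were seen, were also highest in that library. Nfkbia and Tnfaip3, feedback inhibitors of NF-kB, were at 180.70 and 37.75 FPKM there and at 56.04 to 84.93 and 5.72 to 10.55 in the other 7. The LPS co-receptor gene Cd14 was at 53.49 FPKM there and at 8.89 to 36.94 elsewhere. Among the 75 tested genes of the pathway lists other than those described, 16 (21.3%) were highest in that library, beside 9.68% of all genes tested. In WT_PBS replicate 2 the count was 19 (25.3%), beside 21.9% of all genes tested. In KO_LPS replicate 2 it was 16 (21.3%), beside 16.7%. Tnf was not high in WT_LPS replicate 1, at 17.67 FPKM against 15.03 to 21.55 in the other 7. Scaled by the neutrophil markers, Cxcl2 was still highest there, at 1.88 FPKM per 1000 FPKM of markers against 0.0423 to 1.30, whereas Lcn2 was lowest there, at 48.4, and Il1r2, at 3.56, lay below 3 others. The part of the neutrophil transcripts in the levels of these genes, or in any difference between groups, was not tested.

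**Figure D2:**
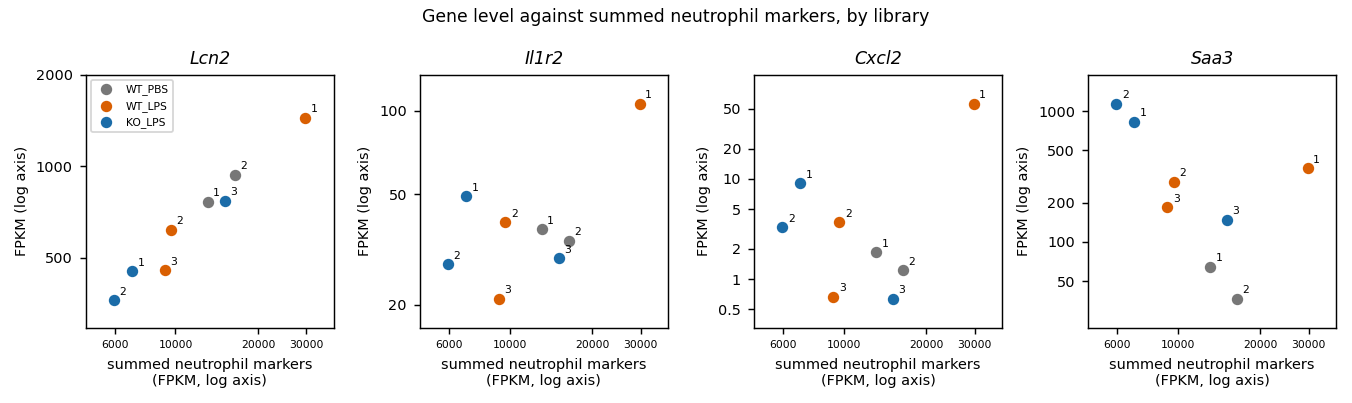
FPKM of Lcn2, Il1r2, Cxcl2 and Saa3 against the sum of 17 neutrophil markers in the same library (both axes log), coloured by group with the replicate number beside each point. Lcn2 lies close to a straight line from 362.21 to 1441.18 FPKM, whereas Saa3 is high in KO_LPS replicates 1 and 2, which have the lowest marker sums.

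The second comparison, between KO_LPS and WT_LPS, was of the Aid genotype of the transplanted cells under LPS. It uses the WT_LPS libraries whose Saa3 and Il1b levels helped to choose the genes, so the p-values of these 2 genes are not independent of that choice and support nothing. With limma and Benjamini-Hochberg adjustment over all genes, 0 of the 8 tested genes passed, with 1 at an unadjusted p under 0.05, and 0.0829% of all 12061 genes were called, 7 higher and 3 lower (7 and 5 with median-ratio scaling). That count of 10 genes was 160 without KO_LPS replicate 3 and 0 to 3 with any other library left out. The groups overlapped for all 9 genes, where 9.14% of the genes tested did not overlap. The median difference of the 9 genes was -0.04, beside -0.06 for all genes tested.

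The smallest p belonged to Il1b, at 21.2 ± 15 FPKM (SD, n = 3) in WT_LPS and 6.20 ± 2.36 (n = 3) in KO_LPS. Its difference was -1.42 ± 0.52 (SE; limma, unadjusted p = 0.0243, adjusted p = 0.765), with a 95% interval from -2.60 to -0.23 before adjustment, and it was -0.90 without WT_LPS replicate 1, -0.63 without the 3 libraries high on the first component and -0.89 with the neutrophil marker level as covariate. None of the 17 neutrophil markers was above 0 in this comparison, with a median difference of -0.73. Il1rn differed in the opposite direction, 1.47 ± 0.720 FPKM in WT_LPS and 3.05 ± 0.979 in KO_LPS, by 0.73 ± 0.32 (limma, adjusted p = 0.765), and by 0.32 without the 3 libraries. Neither passed the threshold, and since Il1b was chosen partly for its WT_LPS level, nothing is read from their opposite directions. Il1a differed by 0.00, with an interval from -0.61 to 0.60.

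Saa3 was at 280 ± 90.9 FPKM (SD, n = 3) in WT_LPS and 705 ± 506 (n = 3) in KO_LPS, a difference of 0.94 ± 0.68 (limma, adjusted p = 0.765) with an interval from -0.60 to 2.48. Without KO_LPS replicate 3 the difference was 1.85 and passed (limma, adjusted p = 0.038), whereas the adjusted p was 0.532 to 1 under every other alternative run, and the difference was 0.38 without KO_LPS replicate 2 and 0.60 without KO_LPS replicate 1. Without WT_LPS replicate 1 and KO_LPS replicates 1 and 2, a choice made after the data were seen that leaves 1 KO_LPS library, it was -0.64, and with the neutrophil covariate it was 0.56. KO_LPS replicates 1 and 2 also had the lowest sums of neutrophil markers, 6936 and 5979 FPKM, and the highest of erythroid markers, 867 and 695 FPKM against 57.15 to 232 in the other 6. The erythroid sum was mostly the globins Hba-a1 and Hbb-bs, at 475.91 and 385.48 FPKM in KO_LPS replicate 1. Gata1, another of these markers, was lowest in both libraries, at 0.14 FPKM against 0.19 to 0.72. Between KO_LPS and WT_LPS, 5 of the 8 erythroid markers were above 0. The monocyte and macrophage markers did not move together in KO_LPS replicates 1 and 2. The complement gene C1qa was at 74.30 and 65.90 FPKM in them and at 18.63 to 22.73 elsewhere. Lyz2 was lowest in them, at 275.81 and 282.58 FPKM against 364.64 to 556.29, as was Ccr2, at 0.63 and 0.40 against 2.19 to 3.78. Between KO_LPS and WT_LPS, 8 of these 15 markers were above 0. The 15 together summed to 624 to 816 FPKM in KO_LPS and 592 to 843 in WT_LPS. The part of these cell types in the level of Saa3 was not tested.

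The intervals of the remaining tested genes included 0. Lcn2 was at 838 ± 529 FPKM (SD, n = 3) in WT_LPS and 528 ± 214 (n = 3) in KO_LPS, a difference of -0.56 ± 0.42 with an interval from -1.51 to 0.39. It was -0.08 without WT_LPS replicate 1, 0.54 without the 3 libraries high on the first component, and 0.02 with the neutrophil marker level as covariate, an alternative also added after the data were seen. Cxcl2 differed by -0.89 ± 1.16 and Il1r2 by -0.37 ± 0.49, and both turned positive without WT_LPS replicate 1, to 0.56 and 0.24. With the neutrophil covariate Cxcl2 was -0.11 and Il1r2 0.07. Acod1 differed by 0.23 ± 0.37, by 0.59 without the 3 libraries and by 0.51 with the covariate.

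**Figure D3:**
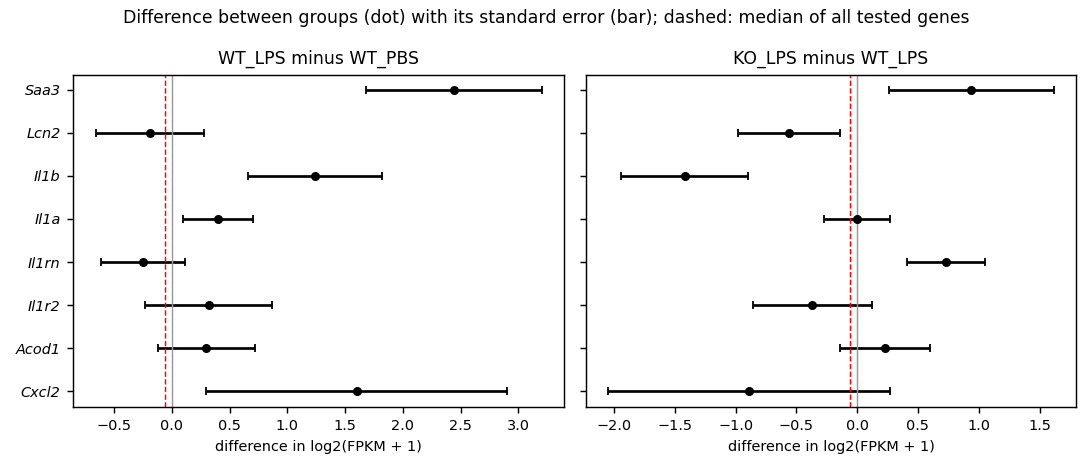
Difference in log2(FPKM + 1) with its standard error (bars) for the 8 tested genes, WT_LPS minus WT_PBS on the left and KO_LPS minus WT_LPS on the right, with the median of all 12061 genes dashed. Saa3 lies at 2.44 on the left and Il1b at -1.42 on the right, and both panels share the 3 WT_LPS libraries.

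Other genes of these pathways were read from 10 lists, in which 75 genes besides those described were tested. Between KO_LPS and WT_LPS, 0 passed (limma, 13 at an unadjusted p under 0.05, beside 686 of all 12061 genes), and their median difference was -0.07. The groups did not overlap for 11 of the 75 upward and 1 downward, beside 4.82% and 4.32% of all genes tested. The 11 included Cxcl10, a chemokine gene induced by interferon, at 1.63 ± 1 FPKM (SD, n = 3) in WT_LPS and 6.91 ± 0.505 (n = 3) in KO_LPS (limma, adjusted p = 0.113). The T-cell chemokine gene Ccl5 was at 27.1 ± 6.93 and 71.8 ± 31.3 FPKM (adjusted p = 0.561).

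Genes of interleukin-18, a relative of interleukin-1 that caspase-1 also cleaves, were among the 11. Il18 was at 1.49 ± 0.363 FPKM (SD, n = 3) in WT_LPS and 3.39 ± 0.540 (n = 3) in KO_LPS (limma, adjusted p = 0.366), and Il18bp, its soluble inhibitor, at 1.46 ± 0.440 and 6.59 ± 3.74 (adjusted p = 0.366). Casp1, the protease that activates both cytokines, was at 19.0 ± 0.459 and 31.2 ± 3.28 FPKM (adjusted p = 0.502), and Casp4, the sensor of LPS inside the cell, at 3.93 ± 0.976 and 7.66 ± 1.78 (adjusted p = 0.575). Sigirr, an inhibitory receptor of the family, was at 18.4 ± 5.77 and 12.3 ± 5.59 FPKM, and the groups overlapped (adjusted p = 0.765). Aim2, a sensor of DNA in the cytosol, was also among the 11.

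In the other lists, the 2 genes with the smallest p were as follows. For interleukin-1 receptor signalling, the kinase gene Irak4 differed by -0.64 ± 0.50 and Map3k7 by 0.15 ± 0.13. For the acute-phase list, the protease inhibitor gene Serpina3g differed by 0.71 ± 0.21 and ceruloplasmin, Cp, by 0.56 ± 0.25. Of the 15 acute-phase genes in the table, some of them below the filter, 9 were above 0, with a median of 0.10. Others went down, such as Lbp by -0.68 ± 0.33 and C3 by -0.40 ± 0.22. For prostaglandins and leukotrienes, Ptgs1 and Alox5ap, the activating protein of 5-lipoxygenase, each differed by -0.83 (SE 0.34 and 0.39). For LPS-induced macrophage genes, the cystine transporter gene Slc7a11 differed by 0.58 ± 0.15, and the anti-inflammatory cytokine gene Il10 by -0.57 ± 0.21. These differences run both ways, and none passed the threshold. For itaconate-linked metabolism, the succinate dehydrogenase genes Sdhb and Sdha differed by 0.26 ± 0.14 and -0.15 ± 0.14. For iron handling, the ferritin gene Fth1 differed by 0.56 ± 0.22 and the iron exporter gene Slc40a1 by -0.59 ± 0.39. Saa1 and Saa2, near-identical acute-phase genes mainly of liver, were at no more than 1.49 and 0.34 FPKM in any library, and Saa1 was above 0.38 FPKM only in KO_LPS replicates 1 and 2, at 1.49 and 1.26. Cxcl1, the close relative of Cxcl2, was at 1.66 FPKM in WT_LPS replicate 1 and at most at 0.35 in the other 7.

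**Figure D4:**
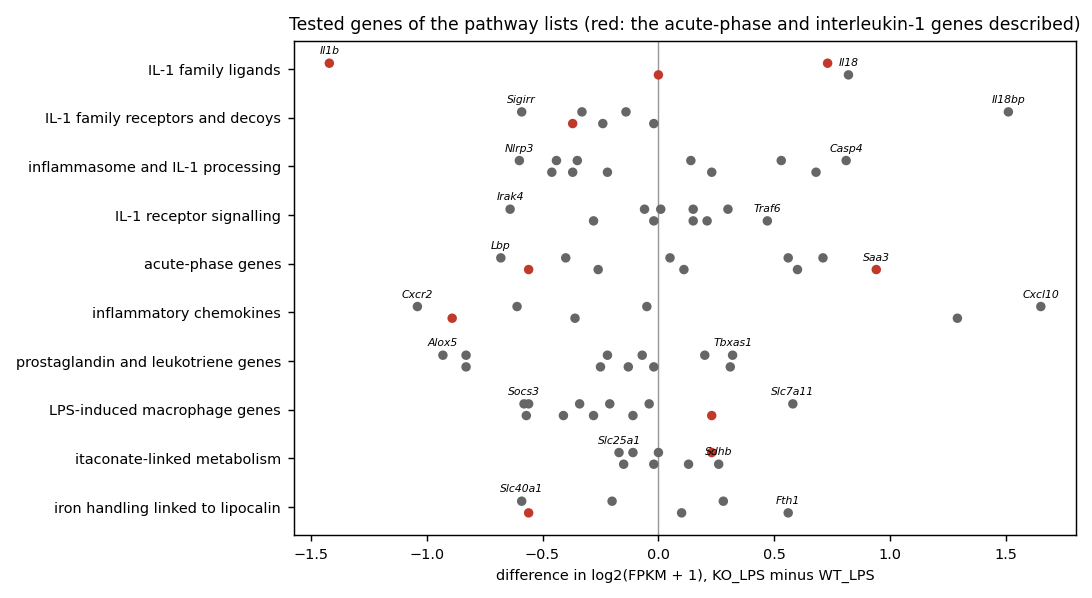
Difference in log2(FPKM + 1), KO_LPS minus WT_LPS, of every tested gene of the 10 pathway lists, with the lowest and highest gene of each list named and the genes described above in red. Cxcl10 at 1.65 and Il18bp at 1.51 lie furthest to the right and Il1b at -1.42 furthest to the left, and none of them passed the threshold.

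Between WT_LPS and WT_PBS, the same 75 genes had a median difference of -0.04 and 0 passed (limma, 0 at an unadjusted p under 0.05). The groups did not overlap for 1 upward, Casp4, and for 5 downward, Il18, Irak2, Serpina3n, Cp and Pla2g4a, beside 5.36% and 10.3% of all genes tested. Of the 15 LPS-induced macrophage genes in the table, Acod1 included, 11 were above 0, with a median of 0.21. The 15 include genes below the filter, such as Il6, Il12b and Csf3. Nfkbia and Tnfaip3 were above vehicle only in WT_LPS replicate 1. In replicates 2 and 3 they were at 70.54 and 62.72 and at 5.97 and 5.81 FPKM, below both vehicle libraries. Cd14 was above vehicle in replicates 1 and 2. The count without WT_LPS replicate 1 was not computed. Tnf, the tumour necrosis factor gene, had 21.55 and 18.01 FPKM with vehicle and 17.67, 18.23 and 16.71 in WT_LPS, and Il6 reached at most 0.38 FPKM.

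Likeness to each gene was measured as the root-mean-square difference between centred log2(FPKM + 1) profiles over the 8 libraries, among named genes tested. Lcn2 was closest to Chil3, a chitinase-like protein gene of the neutrophil marker list, and S100a11, at 0.124 and 0.131. The spread of Lcn2 itself on this scale was 0.608. Il1r2 was closest to Hdc, which encodes the enzyme of histamine synthesis, at 0.189 and to the transcription factor gene Cebpb at 0.289, with a spread of its own of 0.638, and Il1a to Map1lc3a and Tspo, at 0.110 and 0.112 with a spread of 0.339. Il1a was at 0.23 to 1.65 FPKM, where the transform understates changes, while Tspo was at 94.73 to 170.57 FPKM. All such distances were picked as the smallest among all genes compared. The closest genes to Saa3, H2-Aa and Cd74, stood at 0.916 and 0.921 with a spread of 1.57. Those to Cxcl2, Cd14 and Tnfaip3, stood at 0.894 and 0.916 with a spread of 1.60. H2-Aa, a class II antigen presentation gene, was at 97.45 and 54.68 FPKM in KO_LPS replicates 1 and 2 and at 9 to 18.97 elsewhere. Il1b was closest to Csta2 and Plaur (0.439 and 0.459, spread 0.912), Il1rn to Rnf213 and Clec4n (0.187 and 0.190, spread 0.483) and Acod1 to Nxph4 and Osgin1 (0.232 and 0.282, spread 0.478).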

How the data were processed

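Per the labels' protocols, total RNA of bone marrow went into a SMARTER mRNA library kit. The authors deposited FPKM per gene and library, per the file headers, rounded to 2 decimals and summing to 606576 to 700238 per library. The sources used here name no aligner or quantifier. Per the submitters' processing notes the builds were GRCm38 and mm10, names of 1 assembly. FPKM does not correct for composition, an exact 0 can be a failed estimate, and without counts no counting interval was given. NCBI gene numbers were matched to a RefSeq table of GRCm38.p6 (16798 of 18020 rows), which also gave coordinates and promoters.

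Libraries were grouped by the treatment and genotype in their titles, and replicates were numbered in accession order, so numbers pair no samples. Values were transformed to log2(FPKM + 1), which understates changes of low genes. The 12061 genes whose mean reached 0.5 FPKM were fitted with limma 3.58.1 (R 4.3.3), all 8 libraries together, with an intensity trend. P-values were two-sided, adjusted by Benjamini-Hochberg, with a threshold of 0.05.

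The 9 genes and the 17 gene lists were chosen with earlier results of these data known. The text names the 9 genes, the 2 genes of each of 10 pathway lists with the smallest p between KO_LPS and WT_LPS (none passed), and the 2 nearest profiles of each tested gene. Other genes were chosen after their values were seen. The level of the targeted gene is not reported here. Of the lists, 189 of 204 symbols were in the table, and 7 lists hold markers of marrow cell types. The fit was repeated with each library left out, with only the 2 compared groups or the libraries numbered under 10, with a pseudocount of 0.1 or 5, without a filter or with one at 5 FPKM, with quantile or median-ratio normalization, and with robust moderation. Chosen after seeing the data were 2 more: the neutrophil marker level as covariate, and the 3 libraries high on the first component left out.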

Additional observations from a re-analysis of the deposited data

How the results depend on the processing

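Between KO_LPS and WT_LPS, the count of genes called (10) was 5 with no filter, 2 with the filter at 5 FPKM, 0 with the 2 groups only or with libraries numbered under 10 only, and 0 to 160 with 1 library left out, the most without KO_LPS replicate 3. It was 1 without the 3 libraries high on the first component and 1 with the neutrophil covariate. The count among the described genes was 0 to 1 with 1 library left out, Saa3 without KO_LPS replicate 3. Between WT_LPS and WT_PBS, 0 to 2 genes were called with 1 library left out. With libraries numbered under 10 only, which leaves 1 WT_LPS library assumed to vary like the other groups, the median difference of the 9 genes was -0.58 between KO_LPS and WT_LPS, and 0.97 between WT_LPS and WT_PBS. The labels do not say what these numbers mean. Of single genes between KO_LPS and WT_LPS, Acod1 turned to -0.27 with libraries numbered under 10. Without the 3 high libraries Saa3 was -0.64, Lcn2 0.54 and Il1r2 0.02. With the neutrophil covariate Lcn2 was 0.02, Il1r2 0.07, Cxcl2 -0.11, Saa3 0.56 and Il1b -0.89. With 1 library left out, Acod1 ranged from -0.16 to 0.48, Cxcl2 from -1.99 to 0.56, Il1r2 from -0.90 to 0.24 and Lcn2 from -0.91 to -0.08. The cause was not tested. Median-ratio scaling moved the median of all genes between KO_LPS and WT_PBS from -0.12 to 0.01 and the calls there from 4 higher and 2 lower to 3 and 0 (7 and 3 with quantile normalization), and Il1a between KO_LPS and WT_LPS from -0.0034 to 0.03 (0.08 with quantile normalization), the one gene of the 8 tested whose sign either scaling changed there. No paired analysis was possible because the library numbers in the labels differ between groups. Unknown depth limits Ptgs2, Il1a and other genes near 0.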
